A study of Mus musculus with 69 samples.

Results

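The genes described here write, copy, read out and remove cytosine methylation in mouse embryonic stem cells (ESCs): the DNA methyltransferases Dnmt1, Dnmt3a and Dnmt3b, the catalytically inactive partner Dnmt3l, the cofactor Uhrf1, the dioxygenases Tet1, Tet2 and Tet3, and the glycosylase Tdg. Members were taken by symbol from a fixed list, which was drawn up with earlier results of these data known. Of these 9 genes, 8 were found among the 16263 genes of the mRNA-seq count table, and expression of Tdg was not analysed here. All 9 loci were examined in ATAC-seq, which maps accessible chromatin, where 66 of 89596 regions lay within 10 kb of one of the genes. The cells were J1 ESCs of strain 129S4/SvJae, as wild type (WT) and as the clones Mut18 and Mut43 with genotype H3.3K27R, in which lysine of the histone variant H3.3 was replaced by arginine at a site of acetylation and methylation. Both alleles of both H3.3 genes, H3f3a and H3f3b, were edited in each clone. Each line gave 2 mRNA-seq and 2 ATAC-seq libraries, so that 2 WT libraries stood against 4 mutant libraries in each assay. Both libraries of a mutant line share 1 clone, and both clones share 1 parent line. The cells had been grown on feeder fibroblasts and then without feeders before harvest.

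In the mutants, Dnmt3b fell to 58.3% of its WT level and Tet3 to 64.8%, while Tet2 rose to 149.7% of WT, Dnmt3l to 125.1%, Tet1 to 123.2% and Uhrf1 to 116.8%. Dnmt1 and Dnmt3a did not pass the test. Both clones moved each of the 6 changed genes the same way. Among all genes tested, 48.0% passed in mutants against WT. No member passed the test between the clones, beside 0.327% of all genes. ATAC-seq peaks were listed in every library at 9 of 16 annotated starts (56.3%), beside 52.2% of all protein-coding starts, which were counted singly. Of 66 regions near these genes, 0 were listed in all mutant libraries and missing from both WT libraries, beside 0.733% of all regions. The opposite pattern held for 1 of 66, beside 3.25% of all regions.

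Cytosine methylation in mammals sits mainly on CpG dinucleotides. Dnmt3a and Dnmt3b place it on unmodified DNA, with Dnmt3l stimulating them, and Dnmt1 copies it onto the new strand after replication, guided by Uhrf1, which recognises hemimethylated CpG. Tet enzymes oxidise 5-methylcytosine, and Tdg excises the more oxidised forms, which base excision repair then replaces with plain cytosine. ESCs held in the naive ground state have little methylation and the primed state that follows implantation holds much, with Dnmt3b a well-known gene of the primed state and Tet2 and Prdm14 of the naive state. DNA methylation itself was not measured in the libraries used here.

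The CpG content of the promoters is shown for the member with the largest fall (Dnmt3b), the 2 Tet genes with the largest changes (Tet2 and Tet3) and a member whose level did not pass the test (Dnmt1). Each run holds the 250 bases before a start site in RefSeq, read 5′ to 3′ in the direction of transcription, with each CG dinucleotide, the substrate of these enzymes, in capitals (build GRCm38.p6).
Dnmt3b, chr2:153649199-153649448, plus strand: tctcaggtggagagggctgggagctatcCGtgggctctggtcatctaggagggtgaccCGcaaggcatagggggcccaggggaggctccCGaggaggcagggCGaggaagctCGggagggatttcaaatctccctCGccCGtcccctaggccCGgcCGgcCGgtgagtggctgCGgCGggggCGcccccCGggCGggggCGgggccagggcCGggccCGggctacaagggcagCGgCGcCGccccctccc
Tet2, chr3:133544391-133544640, minus strand: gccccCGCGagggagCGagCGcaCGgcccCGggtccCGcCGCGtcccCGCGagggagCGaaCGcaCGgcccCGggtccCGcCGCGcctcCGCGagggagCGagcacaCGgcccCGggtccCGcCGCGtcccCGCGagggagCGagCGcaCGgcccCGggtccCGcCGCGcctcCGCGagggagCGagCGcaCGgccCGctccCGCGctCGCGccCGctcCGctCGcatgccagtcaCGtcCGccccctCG
Tet3, chr6:83441679-83441928, minus strand: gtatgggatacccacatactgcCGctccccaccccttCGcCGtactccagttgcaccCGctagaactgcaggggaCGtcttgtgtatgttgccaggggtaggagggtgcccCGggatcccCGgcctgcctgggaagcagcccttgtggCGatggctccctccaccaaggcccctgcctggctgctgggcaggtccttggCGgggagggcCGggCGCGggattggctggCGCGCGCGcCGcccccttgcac
Dnmt1, chr9:20952980-20953229, minus strand: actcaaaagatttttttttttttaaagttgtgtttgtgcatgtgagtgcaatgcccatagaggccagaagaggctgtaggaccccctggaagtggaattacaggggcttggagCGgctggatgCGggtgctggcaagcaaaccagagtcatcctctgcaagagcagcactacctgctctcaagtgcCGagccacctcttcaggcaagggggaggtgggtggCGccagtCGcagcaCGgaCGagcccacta
These runs hold 21 CpGs for Dnmt3b, 51 for Tet2, 17 for Tet3 and 7 for Dnmt1. The Tet2 run repeats a stretch of closely spaced CpGs, whereas the Dnmt1 run opens with a stretch of T and holds its few CpGs farther on. The Tet3 run shares bases with exons of the antisense transcript B230319C09Rik.

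Over all 16 RefSeq promoter windows of the 9 genes, each from 250 bases before the start to 50 after it, the median was 20 CpGs and 65.5% GC, beside 7 CpGs and 52.7% GC over 32851 windows of 27025 genes. The Tet2 window, with 57 CpGs, exceeded 99.8% of all windows, and the Dnmt3b window, with 30, exceeded 88.3%. Dnmt3a had 46 and 47 CpGs at its upstream starts and 18 at the internal start of its short isoform. Dnmt3l stood at the other end, with 3 to 6 CpGs in its 3 windows, and Dnmt1 ranged from 2 to 33 over its 3 windows. The Dnmt1 window that holds the printed run had 12, and the window with 33, chr9:20952574-20952873, lay close by. Both shared bases with the same ATAC-seq region, which had a peak in every library. On both strands, the GC box GGGCGG was found in 12 of the 16 windows (75.0%), from 8 of the 9 genes, beside 35.7% of all windows. The E-box CACGTG was found in 3 of the windows (18.75%), of Dnmt3a, Dnmt3l and Tdg, beside 7.15% of all windows. The E2F-type motif TTCCCGC was found in 1 window (6.25%), of Uhrf1, beside 4.60% of all windows. CCAAT occurred in 6 windows (37.5%), of Dnmt1, Tdg, Tet3 and Uhrf1, beside 37.4% of all windows. TATAAA occurred in none of the 16, beside 13.6% of all windows. No match shared bases with a match of another of the 5 motifs in these windows, and a match is a description of letters only.

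Library totals lay between 14992756 and 15143998 counts, so depth was nearly equal. Values below are counts normalized by TMM, edgeR's scaling between libraries, and differences are log2 fold changes with their standard error (SE) from edgeR's quasi-likelihood test, with p-values adjusted by Benjamini-Hochberg over 14061 genes. Replicates of a line differed by a chi-square of 1.71 to 3.02 per gene, libraries of different clones by 1.82 to 2.69, and WT from mutant libraries by 16.4 to 22.3. The edited genes were expressed in every library. H3f3a was counted at 10510 and 10937 in WT libraries, at 9560 and 9160 in Mut18 and at 9330 and 8436 in Mut43 after normalization (log2 fold change -0.23, SE 0.043, adjusted p = 0.00016), and H3f3b did not pass (0.03, adjusted p = 0.637). Counts per gene do not show the edit itself.

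Of the 8 members tested, 6 had an adjusted p under 0.05 in mutants against WT, 4 higher and 2 lower. Among all 14061 genes 48.0% passed, 23.5% higher and 24.5% lower, so passing this threshold was common. No member changed more than 2-fold in edgeR, whatever its p, whereas 8.93% of all genes passed with a change beyond 2-fold, and DESeq2 also called none. The median log2 fold change was 0.13 over the members and -0.0041 over all genes, and the median size regardless of sign was 0.31 beside 0.23. The same 6 of 8 passed in each clone set against WT, beside 41.3% of genes for Mut18 and 46.8% for Mut43. These comparisons share the WT libraries.

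**Figure D1:**
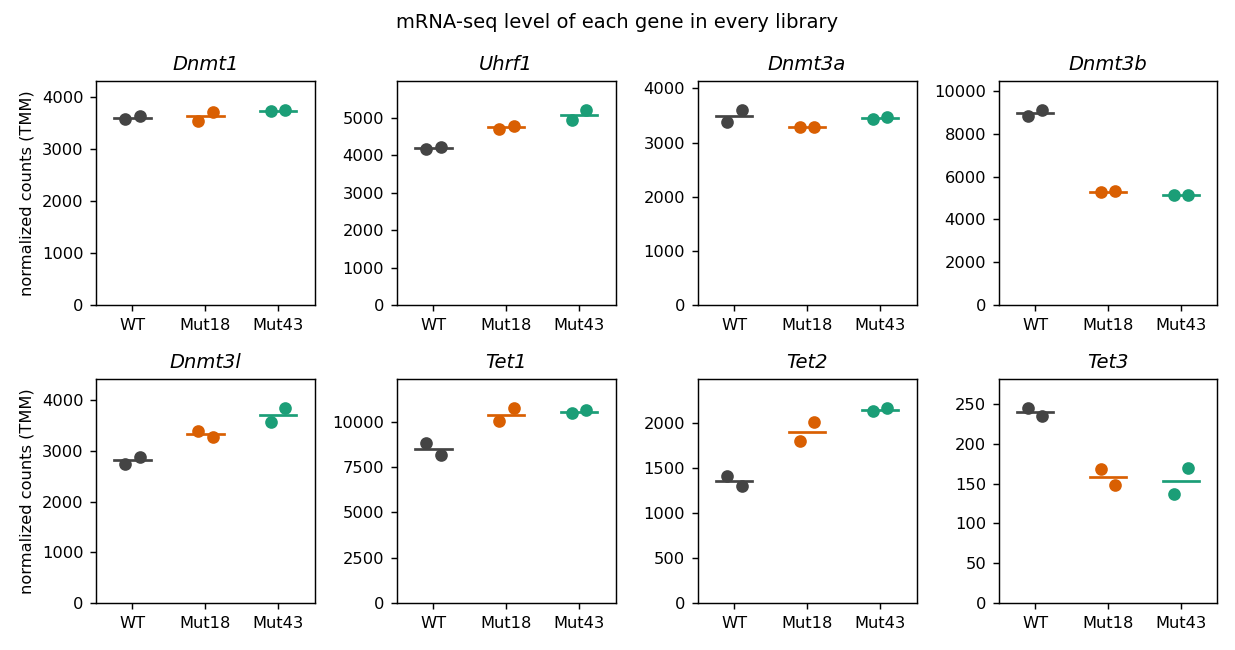
Normalized counts (TMM, linear axes from 0) of the 8 genes in WT, Mut18 and Mut43. Points are single libraries, 2 for each line, and bars are means. The 4 mutant libraries of Dnmt3b lie between 5151 and 5331, all below the WT libraries at 8836 and 9094.

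Dnmt1, the maintenance methyltransferase, is encoded at chr9:20907209-20959888 on the minus strand. It had 3570 and 3639 normalized counts in the WT libraries, 3536 and 3719 in those of Mut18, and 3724 and 3745 in those of Mut43. The groups overlapped. The difference on the log2 scale was 0.03, with a 95% interval of -0.05 to 0.11 and an adjusted p of 0.556. This interval leaves out changes as large as those of the 6 genes that passed.

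Uhrf1 (chr17:56303321-56323486, plus strand) brings Dnmt1 to hemimethylated CpG. It was counted at 4164 and 4231 in WT libraries, at 4695 and 4787 in Mut18 and at 4936 and 5200 in Mut43 after normalization. All mutant libraries lay above both WT libraries, with a log2 fold change of 0.22 (SE 0.043, adjusted p = 0.000223). The ratio of Uhrf1 to Dnmt1 levels, each per kb of exon, was 2.02 and 2.01 in WT and 2.23 to 2.40 in the mutants.

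Dnmt3a (chr12:3806007-3914443, plus strand) is the broadly used de novo enzyme, with a long and a short isoform from separate starts. The WT libraries held 3380 and 3595 normalized counts, those of Mut18 both 3292, and those of Mut43 3428 and 3469. The mutant values lay within or just under the WT range, and the difference on the log2 scale was -0.05, with a 95% interval of -0.14 to 0.04 and an adjusted p of 0.349. Counts per gene do not separate the isoforms.

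Dnmt3b (chr2:153649450-153687730, plus strand), the de novo enzyme abundant in the early embryo, had the largest change of the 8. It had 8836 and 9094 normalized counts in the WT libraries, a mean of 8965 ± 182 (SD, n = 2), against 5269 and 5331 for Mut18 and 5151 and 5162 for Mut43, a mean of 5228 ± 87 (SD, n = 4). The gap between WT and mutant libraries was many times the spread within either. The log2 fold change was -0.78 (SE 0.036, adjusted p = 9.67e-13), at rank 1991 of 14061 genes by size. Dnmt3c, a close copy of Dnmt3b annotated next to it, was not analysed here, and reads that fit both genes could have been assigned to either.

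Dnmt3l (chr10:78041947-78063622, plus strand), which lacks catalytic activity and stimulates Dnmt3a and Dnmt3b, moved the other way from Dnmt3b. It had 2743 and 2885 normalized counts in the WT libraries, 3402 and 3267 in those of Mut18, and 3567 and 3849 in those of Mut43. All mutant libraries were higher than WT, with a log2 fold change of 0.32 (SE 0.053, adjusted p = 3.87e-05). Its exons share 67 bp with those of Aire on the other strand, and strand use in the counting is not given in the sources used here.

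Tet1 (chr10:62804570-62908996, minus strand), the most abundant Tet enzyme of ESCs, was counted at 8838 and 8172 in WT libraries, at 10038 and 10759 in Mut18 and at 10461 and 10639 in Mut43 after normalization. Every mutant library was above WT, and the log2 fold change was 0.30 (SE 0.041, adjusted p = 4.25e-06).

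Tet2 (chr3:133463679-133545139, minus strand), which lacks the CXXC DNA-binding domain present in Tet1, had 1409 and 1296 normalized counts in the WT libraries, 1795 and 2008 in those of Mut18, and 2129 and 2165 in those of Mut43. It had the largest rise of the 8 genes, with a log2 fold change of 0.58 (SE 0.062, adjusted p = 1.55e-07), and again the groups did not overlap.

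Tet3 (chr6:83362373-83459084, minus strand), known for its role in the zygote and in neurons, was the scarcest member. It was counted at 245 and 235 in WT libraries, at 168 and 148 in Mut18 and at 137 and 169 in Mut43 after normalization. All mutant libraries lay below WT, with a log2 fold change of -0.62 (SE 0.10, adjusted p = 3.38e-05). Its interval, -0.84 to -0.41, was the widest of the 8.

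For 6 of the 8 genes the mutant and WT libraries did not overlap, which was also true of 59.8% of all genes tested. Each chromosome that carries a member had a median log2 fold change between -0.07 (chromosome 3) and 0.0026 (chromosome 17) over its genes. Chromosome 11, with a median of 0.39, carries none of them.

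The clones were close to each other. Against WT, Dnmt3b had a log2 fold change of -0.76 in Mut18 and -0.80 in Mut43, and Tet3 of -0.60 and -0.65. The genes that rose had the larger value in Mut43, at 0.49 in Mut18 and 0.67 in Mut43 for Tet2, 0.24 and 0.40 for Dnmt3l, 0.18 and 0.27 for Uhrf1, and 0.29 and 0.31 for Tet1. In the direct test of Mut43 against Mut18, edgeR called 0 of 8 members, beside 0.327% of all genes, and DESeq2 also called 0. At an unadjusted p under 0.05 there were 3, Tet2 (0.18, adjusted p = 0.237), Dnmt3l (0.15, adjusted p = 0.245) and Uhrf1 (0.10, adjusted p = 0.541), all higher in Mut43.

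**Figure D2:**
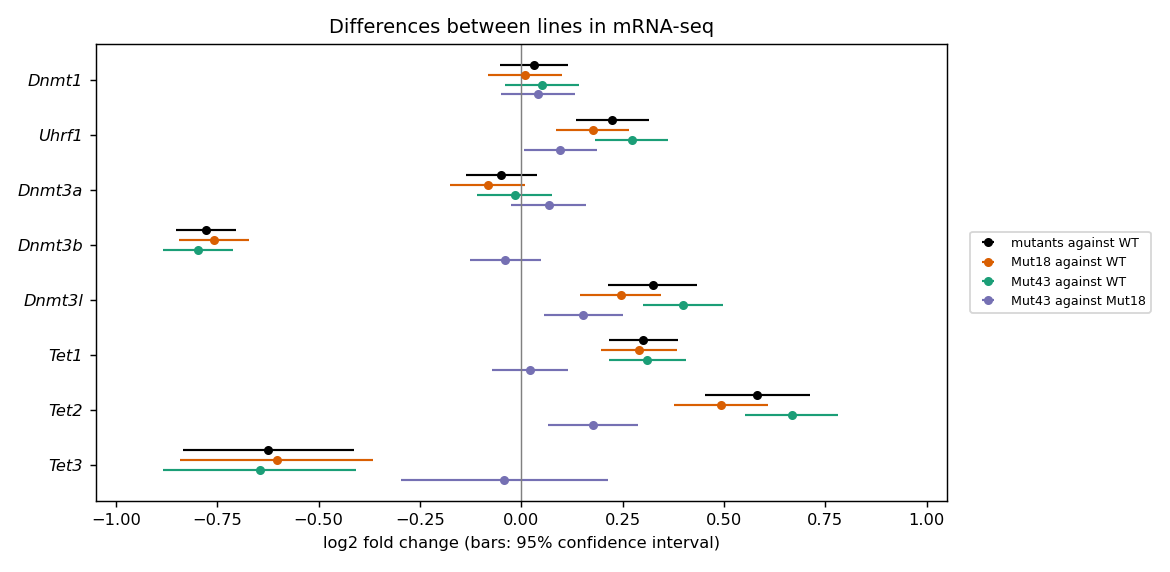
Log2 fold change (x axis) of the 8 genes (y axis) for mutants against WT, each clone against WT, and Mut43 against Mut18, from edgeR fits to 6 libraries. Bars are 95% confidence intervals. Dnmt3b and Tet3 lie below 0 in both clones, Uhrf1, Dnmt3l, Tet1 and Tet2 lie above 0, and the intervals of Dnmt1 and Dnmt3a include 0.

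To compare genes with each other, levels were expressed as CPM, counts scaled to library size, per kb of merged exons (CPM per kb). In WT the order was Dnmt3b (115 to 118), Uhrf1 (64.9 to 65.9), Dnmt3l (60.9 to 64.1), Tet1 (35.1 to 37.9), Dnmt1 (32.1 to 32.7), Dnmt3a (13.5 to 14.3), Tet2 (5.10 to 5.54) and Tet3 (0.94 to 0.97). Against 13961 genes with a length, WT Dnmt3b stood at percentile 97.5, Tet2 at 53.1 and Tet3 at 21.7. In the mutants Dnmt3l (72.6 to 85.5) and Uhrf1 (73.2 to 81.0) overlapped, and both were above Dnmt3b (67.0 to 69.3). Tet1, Dnmt1, Dnmt3a, Tet2 and Tet3 followed in the same order as in WT. The order of close neighbours depends on the length used. With the longest transcript in place of merged exons, Dnmt3l stood above Uhrf1 in both WT libraries, and Dnmt1 (40.4 and 41.1) and Tet1 (40.8 and 37.7) overlapped.

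**Figure D3:**
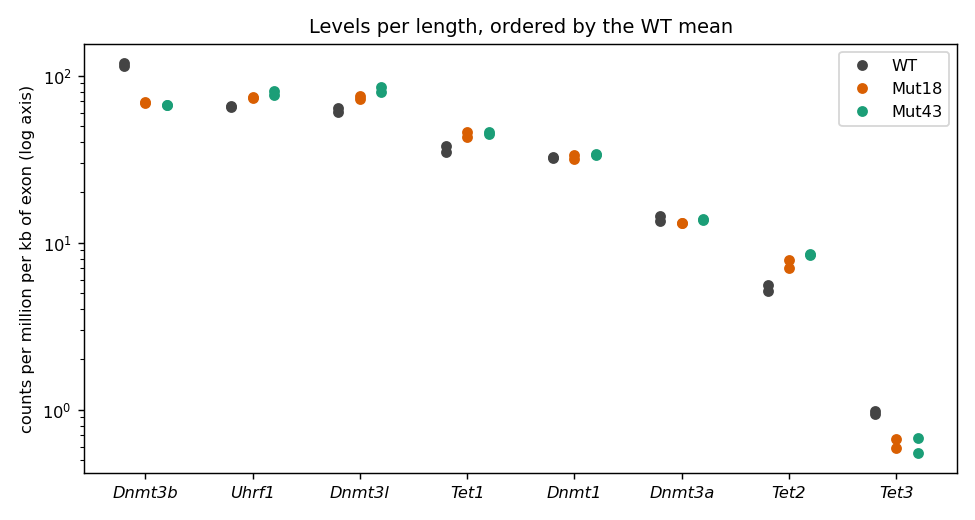
Level of each gene in CPM per kb of merged exons (log axis), ordered by the WT mean, with 1 point per library and 2 libraries per line. Dnmt3b leads in WT and lies below Uhrf1 and Dnmt3l in all 4 mutant libraries, and Tet3 is lowest in all 6.

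Within the families, ratios of these levels differed between WT and mutant libraries. The size of each ratio and share depends on the length used, here merged exons. Mean WT levels of Dnmt3b and Dnmt3a were 117 and 13.9 with merged exons and 138 and 23.9 with the longest transcript. Those of Tet1 and Tet2 were 36.5 and 5.32 with merged exons and 39.3 and 9.78 with the longest transcript. Dnmt3b exceeded Dnmt3a 8.52-fold and 8.24-fold in WT and 4.85-fold to 5.28-fold in the mutants. Dnmt3b stood at 1.89 and 1.84 times Dnmt3l in WT and at 0.785 to 0.955 times in the mutants, so the order of enzyme and partner turned over in all 4 mutant libraries. Dnmt3a and Dnmt3b together came to 130 CPM per kb in WT and 81.4 in the mutants, of which Dnmt3a made up 10.7% and 16.5%. Tet1 made up 85.3% of summed Tet levels in WT and 84.0% in the mutants, Tet2 12.4% and 14.9%, and Tet3 2.23% and 1.16%. The Tet sum was 42.8 CPM per kb in WT and 53.6 in the mutants. Tet2 exceeded Tet3 5.69-fold and 5.45-fold in WT and 10.6-fold to 15.3-fold in the mutants.

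The libraries also differed in markers of cell state and of other cells. Over all genes tested, 23.5% passed as higher and 24.5% as lower, and 8.93% passed with a change beyond 2-fold. All 8 ESC markers were expressed, with a summed 57304 and 59766 normalized counts in WT and 64301 to 67580 in the mutants, 6 higher (Zfp42 by a log2 fold change of 0.72) and 2 lower (Pou5f1 by -0.27, Utf1 by -0.19). Of 6 primed epiblast markers, 5 fell and 4 of these more than 2-fold (Fgf5, T, Pou3f1 and Sox3), with summed counts of 2920 and 3229 in WT and 1672 to 1744 in the mutants. Of 6 markers of 2-cell-like cells, 5 were tested and all 5 fell, with sums of 1540 and 1662 in WT and 205 to 276 in the mutants, and the Zscan4 genes among them are near-identical copies. Of 9 feeder fibroblast markers, 8 were tested and 6 fell, with sums of 4174 and 2953 in WT and 1899 to 2538 in the mutants. Lum was at 0 in 3 libraries, and Foxa2 and Tcstv1 of the lists for primitive endoderm and 2-cell-like cells each in 1. Of 6 primitive endoderm markers, 5 were tested, 1 rose and 2 fell, with sums of 345 to 382 in WT and 206 to 246 in the mutants. The part of these markers' cells in the changes of Dnmt3b and the other members was not tested. In bulk RNA, fewer cells of a type and less RNA per cell cannot be told apart. Without WT replicate 1, the library highest in fibroblast markers, the same 6 members passed, with log2 fold changes of -0.80 for Dnmt3b, -0.59 for Tet3, 0.65 for Tet2, 0.36 for Tet1, 0.29 for Dnmt3l and 0.22 for Uhrf1. The remaining WT library, at 2953, still had a higher fibroblast sum than every mutant library.

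Genes that act with these enzymes were counted in 7 lists in the same fit. Among 7 cofactors of maintenance methylation, Dppa3 rose and Uhrf2 fell, and 5 did not pass. Dppa3, which binds Uhrf1 and keeps it from chromatin, had 254 and 231 normalized counts in the WT libraries, 934 and 812 in those of Mut18, and 855 and 890 in those of Mut43 (log2 fold change 1.85, SE 0.077, adjusted p = 2.38e-13). The mutant libraries all lay far above WT. Uhrf2, a relative of Uhrf1, had a log2 fold change of -0.26 (adjusted p = 0.00165). Hells, Pcna, Lig1, Usp7 and Cdca7 ranged from -0.09 to 0.06.

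Among 13 recruiters and regulators of the enzymes, 6 rose and 4 fell. Prdm14, a naive-state factor known to repress Dnmt3b, was counted at 137 and 158 in WT libraries, at 355 and 348 in Mut18 and at 367 and 371 in Mut43 after normalization (log2 fold change 1.29, SE 0.09, adjusted p = 4.12e-10). Its groups stood far apart, in the direction opposite to Dnmt3b. A part of Prdm14 in the change of Dnmt3b was not tested. Mga, a subunit of a repressor complex at germline promoters, rose by 0.28 (adjusted p = 0.00014), and E2f6 of the same complex fell by 0.52 (adjusted p = 3.29e-06). Lin28a, an RNA-binding protein of pluripotent cells, fell by 0.27 (adjusted p = 1.68e-06).

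Among 14 genes listed for base excision repair, which include other glycosylases such as Ung and Smug1 and the Gadd45 genes, 4 rose and 3 fell. Lig3, a DNA ligase (0.38, adjusted p = 1.09e-06, on chromosome 11), and Ung, which removes uracil (0.35, adjusted p = 1.88e-05), had the largest rises among genes whose groups did not overlap, and Neil1 rose with overlapping groups. The glycosylase Neil3 (-0.73, adjusted p = 9.91e-06) and the stress-response gene Gadd45a (-0.70, adjusted p = 1.21e-07) fell most. Among 14 genes that supply the methyl donor or Tet cofactors, 7 rose and 0 fell in edgeR, led by Shmt1 of one-carbon metabolism (0.55, adjusted p = 6.40e-09, on chromosome 11) and the ascorbate transporter Slc23a2 (0.53, adjusted p = 1.76e-08). Mat2b, another of the 7 (0.28, adjusted p = 1.24e-05), also lies on chromosome 11, whose genes had the median log2 fold change of 0.39 given above. The median of the methyl donor and cofactor list was 0.13.

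Among 8 readers of methylated CpG, Zbtb38 rose (0.54, adjusted p = 0.00011) and Zbtb33 (-0.55, adjusted p = 1.87e-06) and Mbd2 (-0.43, adjusted p = 0.00042) fell. Among 8 CXXC proteins that bind unmethylated CpG, Kmt2b, a histone methyltransferase, rose (0.24, adjusted p = 0.00011) and 4 fell, led by Cxxc4 (-1.29, adjusted p = 0.018, at 4.01 to 15.6 normalized counts) and Cxxc5 (-0.70, adjusted p = 4.71e-08). Tet3 itself carries a CXXC domain.

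Of 17 germline genes known to be silenced by promoter methylation, 7 rose and 5 fell, with a median log2 fold change of 0.08. Stra8, which starts meiosis, rose by 2.43 (adjusted p = 7.45e-07) and Tuba3a, which has a near-identical copy, by 1.73, while Tdrd1 fell by 1.18 and Taf7l by 1.01. Set beside percentages of 23.5% higher and 24.5% lower over all genes, the lists held changes in both directions, with the exception of the methyl donor and cofactor list.

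**Figure D4:**
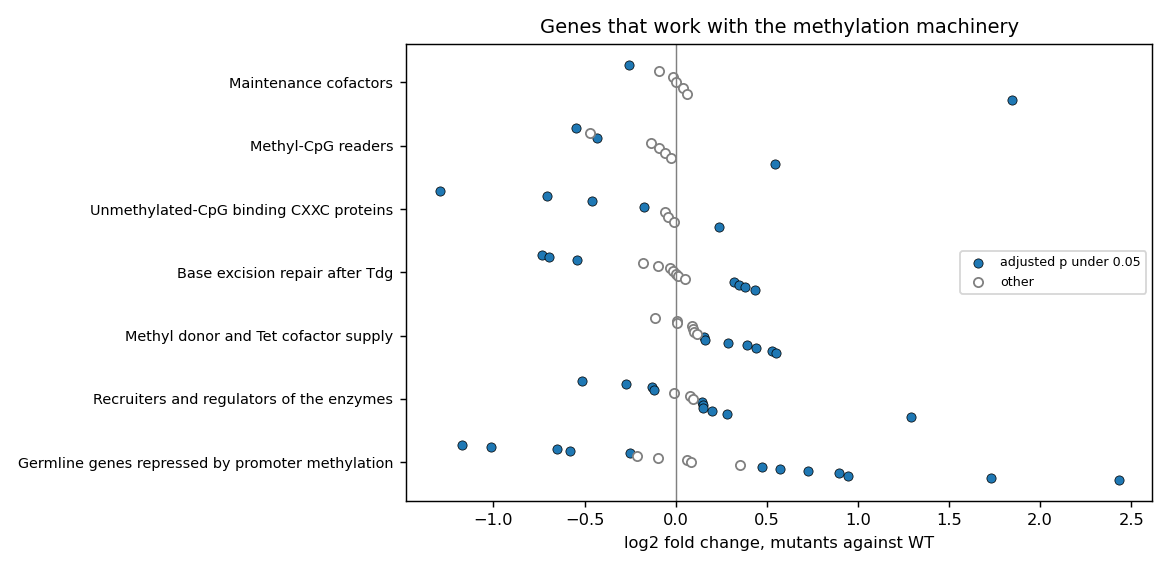
Log2 fold change in mutants against WT (x axis) of every tested gene in the 7 lists (y axis). Filled points have an adjusted p under 0.05. The list labelled base excision repair after Tdg also holds other glycosylases and the Gadd45 genes. Stra8 at 2.43, Dppa3 at 1.85, Tuba3a at 1.73 and Prdm14 at 1.29 lie farthest to the right.

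For the 3 members with the largest changes, the genes with the most similar profile over the 6 libraries were found among 11075 genes by Pearson's r of log2 counts. Adgrl2 (r = 0.999), Sema6a and Rian were closest to Dnmt3b, Ltbr, Chrnb1 and Adarb2 to Tet3, and Cdk12, Nufip2 and Gm14325 to Tet2. Of these, Chrnb1, Cdk12 and Nufip2 lie on chromosome 11, whose genes had the median log2 fold change of 0.39 given above. With r above 0.99 there were 187 genes for Dnmt3b, 57 for Tet2 and 12 for Tet3. The 6 libraries form a WT and a mutant cluster, so these r values mostly follow the step between genotypes. Size was not part of the likeness, and Rian had a log2 fold change of -4.23 beside -0.78 for Dnmt3b.

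In ATAC-seq, the authors' lists held 63588 to 78536 peaks per library, most in WT replicate 1. Peaks of the 6 libraries were merged where they overlapped, and 35 of the 66 regions within 10 kb of the 9 genes had a peak in every library. That share, 53.0%, compares with 57.3% of regions within 10 kb of all genes tested in mRNA-seq and 54.7% of all regions. The number of regions ran from 3 for Tdg to 16 for Dnmt3a, and for Uhrf1 (4 of 4) and Tdg (3 of 3) every region was listed in every library. Only 2 of the 8 Tet1 regions were. With 2 WT and 4 mutant libraries, the smallest exact permutation p is 0.0667, so these lists were described without a test. Fold enrichment over background is the authors' value for each peak and depends on the depth of a library.

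Near Dnmt3b there were 8 regions, of which 3 had a peak in every library. The only region listed in both WT libraries and in none of the mutants lay upstream of it, at chr2:153639440-153639603, with fold enrichments of 3.69 and 4.62 and a -log10 q of 12.9 and 15.3. This pattern held for 1 of 66 regions, beside 2.46% of regions near all tested genes and 3.25% of all regions, and 0 of 66 had the opposite pattern, beside 0.746% and 0.733%. Both counts depend on the peak lists. Regions listed in WT only numbered 0 with the same number of peaks from every library, 3 at a -log10 q of at least 10 and 7 without WT replicate 2, and regions listed in mutants only numbered 1 without WT replicate 1. Around the start, a region at chr2:153649120-153649479, which contains the printed run from its first base to its last, was listed in both WT libraries and Mut43 replicate 2. Just inside the gene, chr2:153649669-153650360 was listed in every library, at 3.95 and 4.27 in WT, 5.11 and 4.84 for the Mut18 pair, and 4.36 and 5.40 for the Mut43 pair. The mutant fold enrichments were thus all above WT, as they were in the other regions near Dnmt3b with a peak in every library, centred at -6507 bp from the start (7.27 and 7.85 in WT, 8.60 to 9.54 in the mutants) and at 2354 bp (4.45 and 4.61, 5.31 to 5.93).

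At the Tet2 start (chr3:133544138-133545158, covering the printed run), fold enrichments were 6.56 and 6.85 in WT, 8.58 and 7.57 for the Mut18 pair, and 7.11 and 7.62 for the Mut43 pair, all mutants above WT. At the Tet3 start that carries the printed run (chr6:83441267-83442149), they were 8.38 and 10.0 in WT, 7.04 and 7.67 for the Mut18 pair, and 7.80 and 7.96 for the Mut43 pair, all mutants below WT. Over the 35 regions, mutants were all above WT in 7, beside 14.5% of 48984 regions with a peak in every library. They were all below in 1, beside 7.52%. After division by each library's median, the counts were 8 and 1, beside 14.3% and 9.96%.

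Promoters were examined next. Starts of protein-coding transcripts in GENCODE's basic set were joined where they lay within 500 bp of each other, which gave 16 start sites. Of these, 9 had a peak within 500 bp in every library (56.3%), 3 in some libraries and 4 in none. Among 54404 starts of all protein-coding transcripts, taken singly and not joined, the share was 52.2%. These shares are not counted alike. At Dnmt1, the region chr9:20952289-20953204 covered 225 of the 250 printed bases, with fold enrichments of 6.60 and 7.67 in WT and 7.45 to 8.10 in the mutants, and the start 6909 bp upstream had no peak. For Dnmt3a, both the upstream start (4.79 and 5.57 in WT, 4.56 to 6.66 in the mutants) and the internal start of the short isoform (4.33 and 4.58, 3.98 to 5.02) had a peak in all 6 libraries. The Tdg promoter had fold enrichments of 8.52 and 9.94 in WT and 8.06 to 9.91 in the mutants, so its groups overlapped, while all mutants lay above WT in the region centred at -6650 bp from the start (11.2 and 12.6 in WT, 13.1 to 14.1 in the mutants). Neither GENCODE start of Tet1 had a peak within 500 bp. The window of its RefSeq start, chr10:62887275-62887574, shared bases with a region listed in 5 of 6 libraries at fold enrichments of 2.95 to 3.74.

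**Figure D5:**
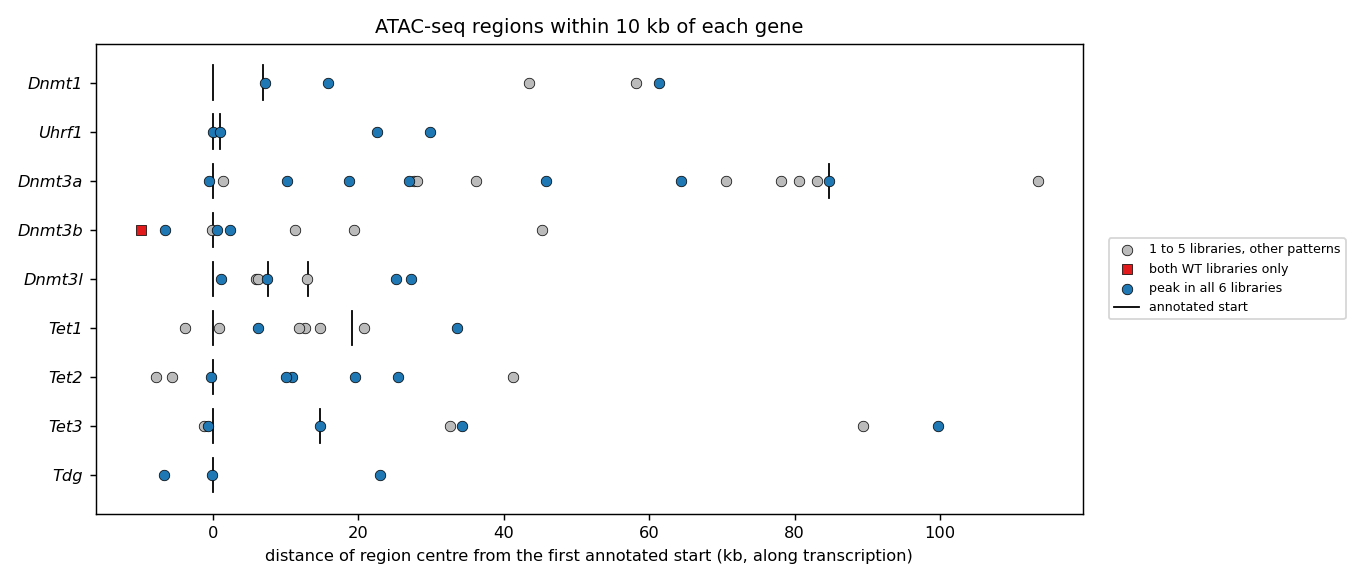
Regions with an ATAC-seq peak within 10 kb of the 9 genes, by the distance of their centre from the first annotated start in kb (x axis). Blue points are the 35 regions with a peak in all 6 libraries, the red square near Dnmt3b the region listed in both WT libraries only, grey points the other regions, and vertical lines annotated starts.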

How the data were processed

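mRNA-seq counts per gene were deposited by the authors as 1 table, with mm10 (GRCm38) named as the build. The paper describes a reference made of mm10 joined with the Drosophila genome dm6. The submitters' processing notes name Bowtie2 2.3.4.2, STAR, SAMtools, DESeq2 and deepTools 3.3.0, and MACS2 for ATAC-seq. For ATAC-seq the authors deposited 1 peak list per library with a score, a fold enrichment and −log10 p and q values. The score was not used, and the lists hold called peaks only.

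Counts were filtered (filterByExpr, minimum 10 and total 15), scaled by TMM and fitted with edgeR 4.0.16 in R 4.3.3, with 2 groups for mutants against WT and 3 groups for the clones. Calls had a Benjamini-Hochberg adjusted p under 0.05. DESeq2 1.42.0, other scalings and filters, a replicate block and leaving out each library were alternatives. Code was tested on simulated data. Replicate numbers did not pair the libraries (correlations of deviations between -0.05 and -0.00030). Replicates within a line are described as biological, and p-values measure the spread between these libraries. The main fit took the mutant libraries of both clones as replicates of the same group. The only unedited line was WT, so genotype cannot be told apart from the derivation or culture of the clones.

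Merged exon lengths and starts came from the GENCODE annotation, and promoter sequences from RefSeq (GRCm38.p6). Peaks sharing at least 1 bp were merged. The members and lists were chosen with earlier results of these data known. Named from each list were the genes with the 2 largest rises and the 2 largest falls among called genes whose groups did not overlap. Neil1, Mat2b and the maintenance cofactors that did not pass were named after their values were seen. For the 3 members with the largest changes, the 3 genes with the highest r at a mean of at least 50 counts were named. Asz1 and expression of Tdg were not analysed here.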

Additional observations from a re-analysis of the deposited data

Results flagged for a closer look

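Among the 4 mutant libraries of 43 sets of values, 8 of normalized counts and 35 of fold enrichments, 4 sets held a library far from the other 3, as judged by its gap to the nearest of them over the whole range against Dixon's critical value, and chance alone marks about 1 in 20 such sets. For normalized counts of Dnmt1 the ratio was 0.874, with Mut18 replicate 1 lowest at 3536. For the ATAC-seq region centred 8953 bp after the nearest Dnmt1 start it was 0.845, with Mut43 replicate 1 highest at a fold enrichment of 11.9. The Dnmt3a region at -20283 bp gave 0.961, with Mut18 replicate 2 highest at 5.65. The Dnmt3l region at 14148 bp gave 0.861, with Mut43 replicate 2 highest at 7.38.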

How the results depend on the processing

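Of 112 log2 fold changes of single members under alternative settings, 110 kept their direction and their side of the threshold. Both exceptions had not passed the test, Dnmt1 at -0.0089 (adjusted p = 0.862) with library totals and Dnmt3a at 0.0027 (adjusted p = 0.976) without WT replicate 2 (-0.090 without WT replicate 1), and the cause was not tested. Dnmt3b ranged from -0.82 to -0.75, Tet3 from -0.67 to -0.56, Tet2 from 0.53 to 0.65, Dnmt3l from 0.28 to 0.37, Tet1 from 0.25 to 0.36 and Uhrf1 from 0.19 to 0.25. The count of members passing in mutants against WT was 6 under every setting run, and Mut18 against WT gave 7 with library totals. With the replicate number as a block, the counts were 6 for mutants against WT, 6 for each clone against WT and 0 between clones, and the block changed no call. With the longest transcript as length, WT levels in CPM per kb were 138 for Dnmt3b, 102 for Dnmt3l, 77.7 for Uhrf1, 40.7 for Dnmt1, 39.3 for Tet1, 23.9 for Dnmt3a, 9.78 for Tet2 and 1.46 for Tet3, and with library totals 33.0 for Dnmt1 and 66.6 for Uhrf1. Regions with a peak in every library numbered 78 of 138 within 50 kb and 26 to 39 under the other alternatives. Absence from a peak list does not show closed chromatin, and 2 libraries per line limit the precision.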
